A study of Mus musculus with 4 samples.

Results

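The genes Il9, Il4, Il3 and Csf2 encode 4 cytokines of helper T cells, and they were read out in Th9 cells that either carried or lacked amphiregulin (Areg), a ligand of the epidermal growth factor receptor (EGFR). They were chosen by name from the 515 genes of the deposited table after its FPKM values in both genotypes were known, so their ratios are given as a description and were not tested. Per the labels, the 4 samples were Th9 cells of C57BL/6 mice, 2 of the Wild type genotype (WT) and 2 of the Areg-/- genotype, a mouse in which every cell lacks a working Areg gene. By the study's methods, naïve CD4+ T cells were sorted from spleen and lymph nodes of mice aged 6 to 12 weeks. They received plate-bound anti-CD3 and anti-CD28 together with TGF-β1 and IL-4 for 3 days. That protocol is written for WT mice, and the methods do not say that the genotypes were cultured side by side. Work on Areg-/- mice was done in Oxford and its samples were shipped to India. The site of these WT cultures is not stated, so whether site differed with genotype could not be checked. The sources used here do not say whether the samples of a genotype came from separate mice or cultures.

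Th9 cells are CD4+ T cells that make IL-9 when naïve cells see TGF-β1 and IL-4 together. IL-9 acts on mast cells, epithelium and lymphocytes, and IL-4 is the defining cytokine of type 2 immunity, which drives B cells to make IgE and naïve T cells to become Th2 cells. IL-3 and GM-CSF, the product of Csf2, are growth factors for myeloid cells, basophils and mast cells. Activated T cells transcribe all these genes upon T cell receptor signaling through NFAT and AP-1, while STAT6 carries the IL-4 signal and GATA factors take part in the type 2 program. As IL-4 protein was added to every culture, the Il4 value speaks of the transcript that the cells themselves made.

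The table gives 1 FPKM value for each gene and genotype, that is, the mapped fragments scaled to transcript length and library size, with both samples of a genotype combined by the authors. There are no values per sample, so the depth of the samples and the spread between them are unknown, none of the differences is given here with an error or a test (the authors' own tests in the table were not used), and no order of levels can be set against a spread. Each listed gene, 515 of 515, was marked as changed by the authors, so the genes around the 4 cytokines are called genes as well and not a sample of the transcriptome. The study's methods also ask for an absolute fold change above 2, which 181 of the 515 genes passed by the ratios computed here. Il4 did not pass it, so the mark is wider than that cut-off. Of these 515 genes, 356 were higher and 159 lower in Areg-/- Th9 cells, and the median log2 ratio was 0.62. Areg itself was not among the listed genes, so its loss was not checked. The WT column is named as cells without doxycycline, the inducer that the study used in other mice, whereas the knockout column says nothing of it. It was taken to hold the WT samples of this series.

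Il4, Csf2 and Il3 lie on the minus strand of chromosome 11 and Il9 lies on the minus strand of chromosome 13. The 250 bases before the start site of each gene are shown as a description. As the 4 genes were chosen with their ratios known, a shared motif says nothing of a shared control. The windows come from RefSeq on GRCm38.p6 and are written 5′ to 3′ on the strand of the gene, at chr13:56482258-56482507 for Il9, chr11:53618666-53618915 for Il4, chr11:54267280-54267529 for Il3 and chr11:54249900-54250149 for Csf2. Capitals mark matches on either strand to the motifs searched, namely GGAAA (the NFAT core), TGANTCA (AP-1), GATA, TTCNNNNGAA (STAT6), and ACGTG and GCGTG (cores bound by HIF1).
Il9: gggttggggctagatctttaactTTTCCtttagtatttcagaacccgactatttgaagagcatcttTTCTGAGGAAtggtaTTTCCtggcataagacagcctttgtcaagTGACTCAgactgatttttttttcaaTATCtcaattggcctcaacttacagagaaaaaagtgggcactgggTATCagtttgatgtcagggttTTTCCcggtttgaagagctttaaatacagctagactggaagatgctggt
Il4: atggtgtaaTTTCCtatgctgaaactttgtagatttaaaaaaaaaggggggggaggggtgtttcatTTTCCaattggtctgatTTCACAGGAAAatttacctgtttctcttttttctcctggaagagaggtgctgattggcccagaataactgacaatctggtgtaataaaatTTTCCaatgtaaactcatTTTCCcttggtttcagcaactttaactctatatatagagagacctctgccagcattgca
Il3: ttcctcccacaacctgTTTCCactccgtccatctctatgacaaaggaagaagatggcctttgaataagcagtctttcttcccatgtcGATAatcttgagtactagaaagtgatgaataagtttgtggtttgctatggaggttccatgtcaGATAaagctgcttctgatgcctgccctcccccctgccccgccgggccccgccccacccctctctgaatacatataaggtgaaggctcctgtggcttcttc
Csf2: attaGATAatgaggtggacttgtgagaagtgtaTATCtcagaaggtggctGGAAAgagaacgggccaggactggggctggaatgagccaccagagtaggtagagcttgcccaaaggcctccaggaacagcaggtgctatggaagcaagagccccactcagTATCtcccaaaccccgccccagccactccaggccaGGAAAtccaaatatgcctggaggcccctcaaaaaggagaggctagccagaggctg
The GGAAA core was in all 4 windows, with 3 matches before Il9, 5 before Il4, 1 before Il3 and 2 before Csf2, but 55.6% of the 32841 windows of the table also hold it. The TTCNNNNGAA motif was in the windows of Il9 and Il4, against 5.85% of all windows. In Il4 it overlaps a GGAAA match, from 167 to 158 and from 161 to 157 bases before the start. The AP-1 motif was in the Il9 window only, from 140 to 134 bases before the start, against 6.75% of all windows. GATA was before Il9, Il3 and Csf2 and in 53.6% of all windows. Neither ACGTG, held by 16.6% of all windows, nor GCGTG, held by 28.2%, was in any of these 4 windows. The study, however, describes 4 putative HIF1α sites in the proximal Il9 promoter. It reports HIF1α binding at each by chromatin immunoprecipitation in Th9 cells. Their positions are not given in the sources used here, so they could not be placed against the Il9 window. A match is a run of letters and not a bound site, and a missing match speaks of this window alone. The RefSeq start of Csf2 lies 232 bases before the GENCODE start, so its window is farther upstream than the others, whose starts differ by 2 to 11 bases.

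All 4 cytokine genes were lower in Areg-/- than in WT Th9 cells, by 1.81-fold to 3.38-fold. Il4, the most abundant of them, was at 101.2 FPKM in WT and at 56.0 FPKM in Areg-/- cells. Csf2 was at 16.1 FPKM in WT and at 7.14 FPKM in Areg-/- cells. Il3 was at 14.0 FPKM in WT and at 4.16 FPKM in Areg-/- cells. Il9, the cytokine that gives Th9 cells their name, had the lowest level of the 4 in both genotypes, with 3.82 and 1.24 FPKM. The order of levels, Il4 above Csf2 above Il3 above Il9, was thus the same in both genotypes.

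**Figure D1:**
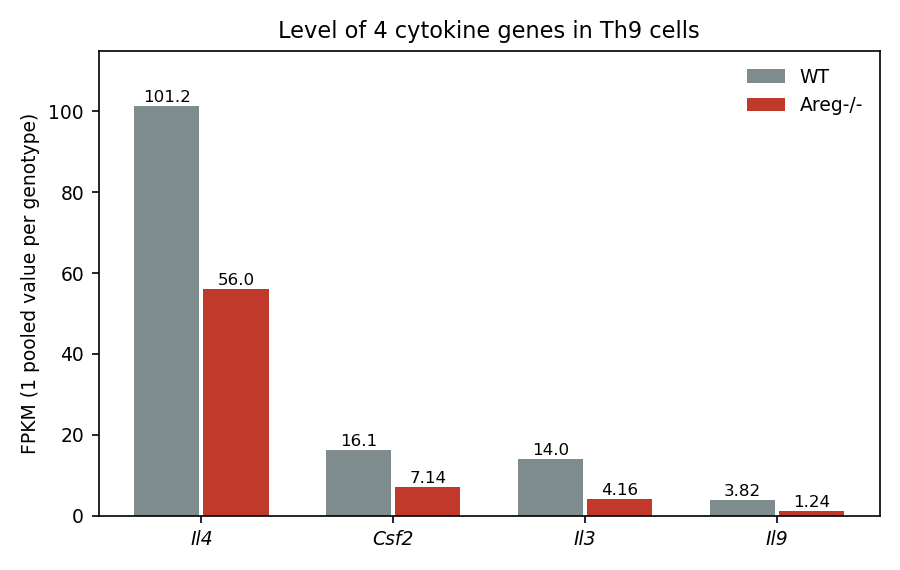
FPKM (y axis) of Il4, Csf2, Il3 and Il9 in WT (grey bars) and Areg-/- (red bars) Th9 cells; each bar is the authors' single value for both samples of a genotype, so there are no error bars. Each Areg-/- bar is below its WT bar, from 56.0 against 101.2 FPKM for Il4 to 1.24 against 3.82 FPKM for Il9.

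The ratio differed among the 4 genes. Il3 had the lowest, with 29.6% of its WT level and a log2 ratio of -1.76. Il9 kept 32.6% of its WT level, a log2 ratio of -1.62. Csf2 kept 44.3%, a log2 ratio of -1.17, and Il4 kept 55.3%, a log2 ratio of -0.85. Il4 was therefore the member with the smallest ratio change and the largest change in FPKM, 45.2 FPKM, against 9.89 for Il3, 8.98 for Csf2 and 2.57 for Il9. In the order of the 159 lower genes by FPKM difference Il4 took position 2, whereas by log2 ratio it took position 60. Il3 was at position 16, Il9 at 20 and Csf2 at 36 by log2 ratio. By FPKM difference Il3 was at position 41, Il9 at 104 and Csf2 at 46.

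Of the 4 genes, 4 were lower in Areg-/- cells, where 30.9% of all listed genes were lower, and 3, namely Il3, Il9 and Csf2, were lower by more than 2-fold, where 9.90% of the listed genes were. The genes were picked on this very contrast, and nothing is read from these shares. Their median log2 ratio was -1.40, beside 0.62 over all listed genes. Among the 151 listed genes whose WT level was within 2-fold of that of Il9, 47 were lower and 5, Il9 included, had a log2 ratio as low as that of Il9. The like number was 5 of 164 genes for Il3, 11 of 155 for Csf2 and 3 of 46 for Il4. With both genotypes scaled to the same summed FPKM of the listed genes, which takes 0.43 from every log2 ratio, Il4 also passed 2-fold, with -1.28.

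**Figure D2:**
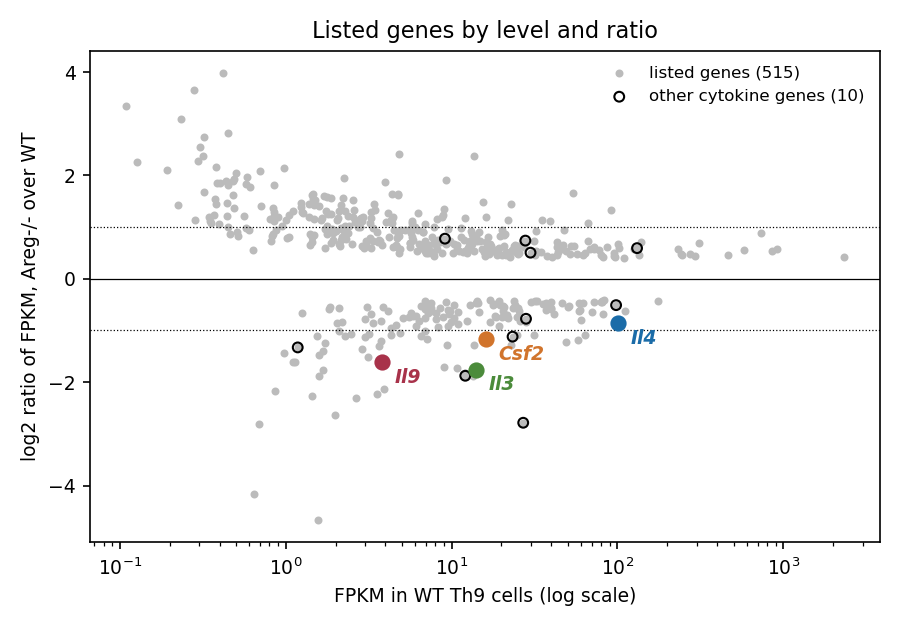
Log2 ratio of FPKM in Areg-/- over WT Th9 cells (y axis) against FPKM in WT cells (x axis, log scale) for the 515 listed genes (grey points), with the 4 cytokine genes in colour and 10 other listed cytokine genes as open circles; dotted lines mark a fold of 2. The 4 coloured points lie below 0, from -1.76 for Il3 to -0.85 for Il4, and no listed gene lies close to 0 since the table holds called genes only.

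The makeup of the 4 transcripts shifted toward Il4. Their summed level was 135.2 FPKM in WT and 68.6 FPKM in Areg-/- cells, 50.7% of WT. Il4 made up 74.9% of the sum in WT and 81.7% in Areg-/- cells, and 67.8% of the summed difference. The share of Il3 was 10.4% in WT and 6.07% in Areg-/- cells, and that of Il9 was 2.82% and 1.81%. Csf2 held 11.9% and 10.4%. On this per-length scale the FPKM of Il4 was 26.5 times that of Il9 in WT cells, and in Areg-/- cells Il9 was at 1.24 beside 56.0 FPKM of Il4. The neighbours Csf2 and Il3 stood at a ratio of 1.15 in WT and 1.72 in Areg-/- cells. As these are bulk values, fewer cells that express a gene and less transcript per cell cannot be told apart.

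The 4 genes were next set among other secreted or membrane-bound cytokines, from a list of 36 genes of which 10 were in the table. Of these 10, 6 were lower and 4 higher, where 30.9% of all listed genes were lower, and when every ratio was centred on the median of 0.62, Il16 and Il24 turned lower, so that 8 were lower. Il2, the T cell growth factor, was at 27.0 FPKM in WT and at 3.92 FPKM in Areg-/- cells, a log2 ratio of -2.79. Tnfsf11 (RANKL) had 12.1 and 3.30 FPKM. Il1a had 1.18 and 0.471 FPKM, and Cd40lg, the T cell ligand that helps B cells, had 23.3 and 10.7 FPKM. These 4 were lower by more than 2-fold, where 9.90% of the listed genes were. The inflammatory cytokine Tnf had a log2 ratio of -0.77 and its relative Lta one of -0.51. By log2 ratio, Il3 was thus the third lowest of the 14 listed cytokine genes and Il9 the fourth, with Csf2 at position 6 and Il4 at position 8.

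The higher cytokine genes were Il10, Il21, Il24 and Il16. Il10, an inhibitory cytokine, was at 9.13 FPKM in WT and at 15.6 FPKM in Areg-/- cells. The study itself found no difference in IL-10 induction between Areg-deficient and WT Th9 cells, by a measure its main text does not name. Il21, a cytokine of follicular helper and Th17 cells, had 27.8 and 46.5 FPKM. Centred on the median, the log2 ratios were 0.15 for Il10 and 0.11 for Il21. Il24, of the IL-10 family, had 131.2 and 197.8 FPKM. Il4 was the second most abundant of the 14 cytokine genes in WT cells and the third in Areg-/- cells, where Lta, with 68.9 FPKM, was above it. The FPKM of Il21 was 7.30 times that of Il9 in WT and 37.3 times in Areg-/- cells, and that of Il10 was 2.39 and 12.6 times that of Il9. Il9, Il4, Il3 and Csf2 together made up 25.8% of the summed FPKM of the 14 genes in WT cells and 14.4% in Areg-/- cells. That sum itself was 523.1 FPKM in WT and 474.6 FPKM in Areg-/- cells, 90.7% of WT. Il2, Il1a, Il21 and Il16 overlap annotated genes on the opposite strand, and it is not stated whether the counting used strand, so their values could hold reads of those genes. Il16 also overlaps Phgdh-ps1 and Lta overlaps Mir6974 on the same strand, which a strand setting would not separate.

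**Figure D3:**
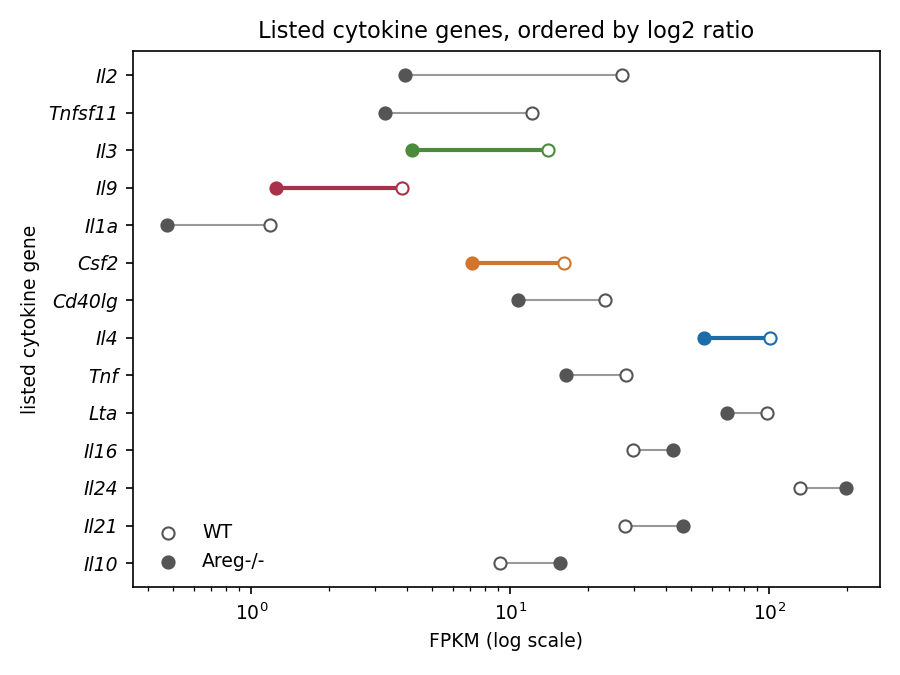
FPKM (x axis, log scale) of the 14 listed cytokine genes in WT (open circles) and Areg-/- (filled circles) Th9 cells, ordered from the lowest log2 ratio at the top to the highest at the bottom, with Il3, Il9, Csf2 and Il4 in colour. In 10 genes the filled circle is to the left of the open one, and in Il16, Il24, Il21 and Il10 it is to the right.

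Il5 and Il13, the other type 2 cytokine genes next to Il4, were not in the table. The cytokine region of chromosome 11 was mapped on GENCODE release M21 (GRCm38, counted from 1). Il4 (ENSMUSG00000000869.12) runs from 53602982 to 53618669, Csf2 (ENSMUSG00000018916.5) from 54247271 to 54249667 and Il3 (ENSMUSG00000018914.5) from 54265303 to 54267277. The start sites of Csf2 and Il3 are 17.6 kb apart, and that of Il4 is 649 kb from that of Il3. Of the 14 protein-coding genes from Il4 to Il3, 3 were listed, namely these cytokines, and of the 11 others, 0 were. Among the others are Il13, Il5, the DNA repair gene Rad50, the interferon factor gene Irf1 and the carnitine and organic cation transporters Slc22a4 and Slc22a5. No level is known here for a gene that is not listed, so the 3 genes cannot be set against their neighbours. The nearest other listed gene on chromosome 11, Gm2a, lies 831 kb beyond the region and was higher in Areg-/- cells, with 28.4 against 19.1 FPKM.

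**Figure D4:**
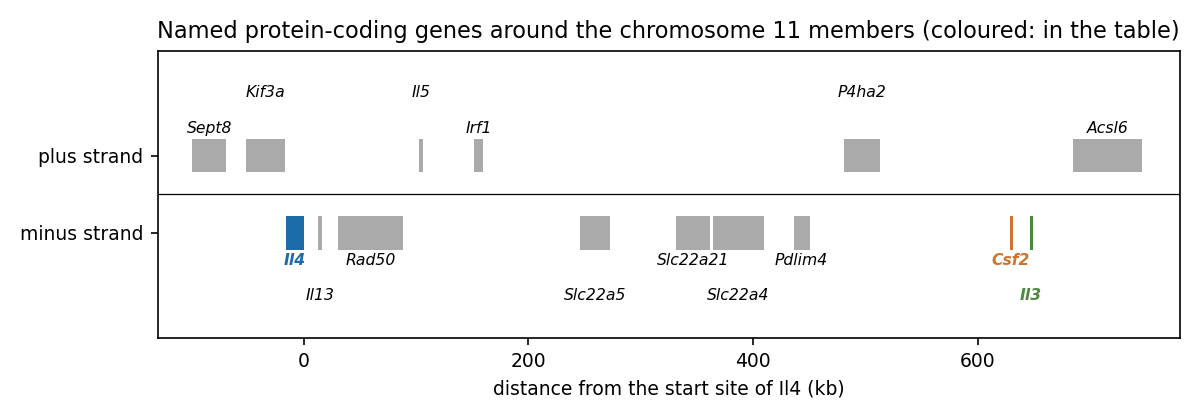
Named protein-coding genes around Il4, Csf2 and Il3 on chromosome 11 (x axis, distance from the start site of Il4 in kb; upper boxes on the plus strand, lower boxes on the minus strand), without genes that carry only a provisional name. The 3 coloured genes are in the table and the grey ones are not, and Csf2 and Il3 sit side by side at 631 and 649 kb from Il4.

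Il9 (ENSMUSG00000021538.3) is on another chromosome, at 56479277 to 56482246 of chromosome 13. The nearest listed gene, Klhl3, an adaptor of a ubiquitin ligase, lies 1518 kb away, with 3.03 FPKM in WT and 1.75 FPKM in Areg-/- cells. Il9, Il4 and Il3 overlap no other annotated gene. Csf2 overlaps Gm12223, a noncoding gene on the opposite strand. The locus given in the table for Csf2, from 54247271 to 54254495, runs past the annotated end of Csf2 at 54249667. Without a stated strand setting, reads of Gm12223 could be part of the Csf2 value. Il9, Il3 and Csf2 span 2970, 1975 and 2397 bases, and Il4 spans 15688 bases. Il4 and Csf2 have 4 exons and Il9 and Il3 have 5. The coding sequences of all 4 are short, with 420 to 498 bases without the stop codon.

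Short messages with AU-rich 3′ UTRs are typical of cytokines, and the pentamer AUUUA, the core of such elements, is known to shorten the life of transcripts. It was counted (as ATTTA in the reference) in the annotated 3′ UTR of the transcript with the longest coding sequence. Csf2 held 9 pentamers in 317 bases, Il9 held 3 in 86 bases, Il4 held 2 in 104 bases and Il3 held 1 in 101 bases. Per kb of 3′ UTR this was 34.9 in Il9, 28.4 in Csf2, 19.2 in Il4 and 9.90 in Il3, where the median was 1.13 over 20676 protein-coding genes and 1.25 over 477 listed genes. A density of 10 or more, a limit set after the values were seen, was met by 1.41% of all protein-coding genes and by 9 of the 477 listed genes. Of these 9, 6 were cytokine genes, namely Il9, Csf2 and Il4 and also Il2 with 12.05, Il24 with 10.5 and Tnf with 10.5 per kb, so that a high density was not particular to the 4 genes. It was met by 5 of the 10 lower cytokine genes, and by Il24 among the 4 higher ones. These 10 include the 4 genes of this report, which were chosen with their ratios known. Of the 5, only Il2 and Tnf are other genes, so nothing is read from this split. With 3′ UTRs of 86 to 104 bases, a single pentamer moves the density of Il9, Il4 or Il3 by about as much as this limit. The other listed genes of the cytokine list had lower densities than Il4, with 0 per kb in Il21 and Il16. The 3′ UTR of the Il21 transcript used has only 40 bases, so its 0 says little about the density. Decay of the transcripts was not measured.

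**Figure D5:**
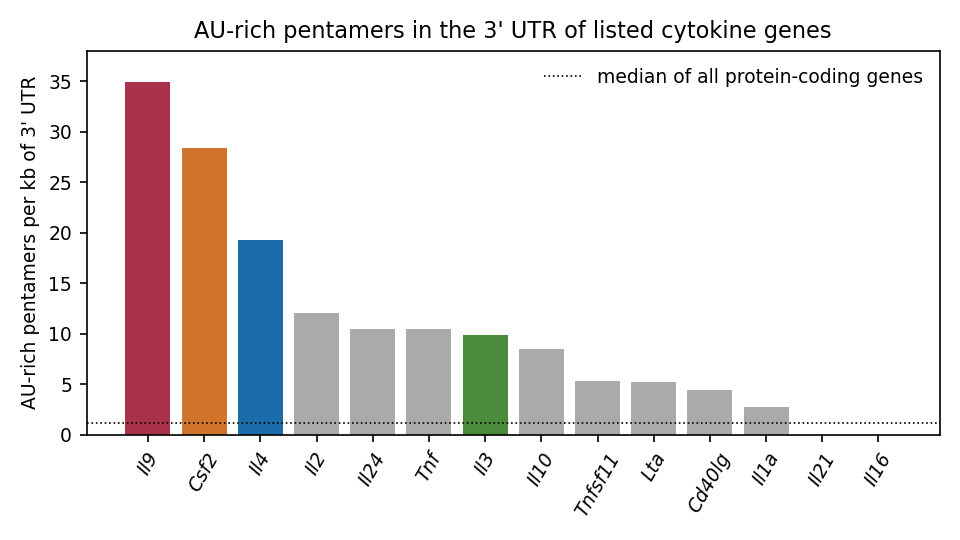
Number of AU-rich pentamers per kb of annotated 3′ UTR (y axis) in the 14 listed cytokine genes (bars, coloured for Il9, Csf2, Il4 and Il3); the dotted line is the median of all protein-coding genes, 1.13. Il9, Csf2 and Il4 have the highest bars, 34.9, 28.4 and 19.2, and Il3 is at 9.90.

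The receptors that bind these cytokines and the factors that drive their genes were looked up as lists. Of 9 receptor genes, among them Il9r, Il4ra, Il3ra, Csf2ra and the common chains Il2rg and Csf2rb, 0 were in the table. Of 58 transcription factor genes of Th9 and Th2 cells, 10 were listed, 4 lower and 6 higher in Areg-/- cells, close to the 30.9% of all listed genes that were lower, with a median log2 ratio of 0.51. Bcl6, the factor of follicular helper cells, was at 1.56 FPKM in WT and at 0.723 FPKM in Areg-/- cells. Egr3, which is induced by T cell receptor signaling, had 24.9 and 15.0 FPKM, and the NF-κB gene Rel, known to act on cytokine genes of T cells, had 14.2 and 10.6 FPKM. Tbx21, which encodes T-bet of Th1 cells, had 51.1 and 35.7 FPKM.

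On the higher side, Maf, whose product binds the Il4 promoter, was at 16.1 FPKM in WT and at 36.7 FPKM in Areg-/- cells, a log2 ratio of 1.19 beside -0.85 for Il4. Nfil3 had 102.3 and 154.6 FPKM, and the repressor gene Prdm1 had 1.41 and 2.20 FPKM. The AP-1 gene Fosl2 had a log2 ratio of 0.65, Ahr of 0.66 and Foxo1 of 0.42, and Nfil3 and Foxo1 turned lower when centred on that median. The factors named most often for Il9, Spi1, Irf4, Batf and Stat6, and Gata3 and Hif1a were not in the table, so their levels are unknown here. By qPCR, the study reports lower Il9, Spi1, Batf and Egfr in Areg-/- than in WT Th9 cells. It also reports lower IL-9 production by the Areg-/- cells. Maf, Ahr, Bcl6 and Foxo1 overlap annotated genes on the opposite strand, and Foxo1 one on its own strand as well.

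The genes most like each cytokine gene were taken as the 2 listed genes with the nearest log2 ratio among those within 2-fold of its WT level. This likeness rests on 1 value in each of 2 genotypes. For Il9 they were Anxa3, an annexin gene, with a log2 ratio of -1.52, and Shtn1 with -1.37. For Il3 they were Jaml, an adhesion molecule of leukocytes, with -1.72, and Ccl20, the chemokine that binds CCR6, with -1.71. For Csf2 they were Cd40lg with -1.12 and Mtmr9 with -1.10, and for Il4 the regulator of G protein signaling Rgs16 with -0.80 and the inhibitory receptor gene Btla with -0.69. The gap to the member was 0.039 to 0.252 on the log2 scale. Rgs16, Jaml and Anxa3 overlap other annotated genes.

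Markers of the labelled and of other cells were looked up beside these values. Of 5 CD4 T cell markers, 5 Th2 markers, 5 B cell markers, 5 myeloid markers and 8 markers of mast cells and basophils, which also make IL-4 and IL-3, 0 were in the table. Their levels are thus unknown, and the cell type could not be checked from its defining markers. The only marker genes found were Cd8a and Klrd1, 2 of the 5 for CD8+ T and NK cells. Their summed level was 3.57 FPKM in WT and 7.72 FPKM in Areg-/- cells, with log2 ratios of 0.64 for Cd8a and 1.62 for Klrd1. By the study's methods the cultures began with sorted CD4+CD62L+ cells of high but not complete purity. Whether CD8+ T or NK cells were carried over, and their part in the lower cytokine values, was not tested.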

How the data were processed

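RNA of Th9 cells from 2 WT and 2 Areg-/- mouse samples was sequenced from poly(A)-selected TruSeq libraries. According to the study's methods and the submitters' processing notes, the authors checked reads with FastQC, mapped them to GRCm38 by TopHat2 with Bowtie2, and compared genotypes with Cuffdiff. The FPKM values were deposited by the authors as 1 value per genotype, with the samples of each genotype combined. The annotation release and strand setting are not given in the sources used here. The table also holds the authors' log2 fold changes, test statistics, p-values and q-values, which were not used.

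The log2 ratio of FPKM (Areg-/- over WT) was computed without a pseudocount and without a filter on low values, and genes were counted past a fold of 2. No test was run, since there is 1 value per genotype. The depth per sample is unknown. The 4 genes, the gene lists and the naming rule (the 4 genes, every listed gene of the lists, and the 2 nearest genes of like level) were chosen with earlier results of these data known. The motifs and the 3′ UTR count were chosen after the data were seen. Start sites, overlaps and 3′ UTRs come from GENCODE M21, with 514 of 515 identifiers matched without version, and promoter windows from RefSeq (GRCm38.p6), where all 4 genes matched. Alternatives were pseudocounts of 1 and 0.1 FPKM, centring on the median log2 ratio, scaling to the same summed FPKM, folds of 1.5 and 4, and a minimum of 1 FPKM in a genotype. The counting code was run on simulated ratios without noise, which checks its arithmetic alone and not the results. Python 3.11.15, numpy 2.4.6, pandas 2.3.3 and matplotlib 3.10.9 were used.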

Additional observations from a re-analysis of the deposited data

How the results depend on the processing

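Il9, Il4, Il3 and Csf2 were lower in Areg-/- cells under both pseudocounts and both scalings. None of these could have turned their sign, as a pseudocount keeps the direction and both scalings lower every gene alike. With a pseudocount of 1 FPKM the log2 ratios were -1.10 for Il9, -0.84 for Il4, -1.54 for Il3 and -1.07 for Csf2, and with 0.1 FPKM they were -1.54 for Il9, -1.73 for Il3 and -1.16 for Csf2. Centring on the median (0.62) gave -2.24 for Il9, -1.48 for Il4, -2.38 for Il3 and -1.80 for Csf2, and scaling to the same summed FPKM (0.43) gave -2.04 for Il9, -1.28 for Il4, -2.18 for Il3 and -1.60 for Csf2. Of the 4 genes, 3 were lower by more than 2-fold, 4 at a fold of 1.5, after centring and after scaling, and 0 at a fold of 4.

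Of the listed genes, 130 were higher and 51 lower by more than 2-fold. There were 276 higher and 109 lower at a fold of 1.5, 17 and 10 at a fold of 4, 54 and 23 with a pseudocount of 1 FPKM, 36 and 159 after centring, and 55 and 112 after scaling. The share of higher genes was 71.8%, and 18.5% after centring and 32.9% after scaling, which follows from the subtraction. Of the 22 other listed genes of the gene lists, 18 kept their direction after centring and 21 after scaling. The log2 ratio became -0.12 for Il16, -0.032 for Il24, -0.21 for Foxo1 and -0.029 for Nfil3 on centring, and -0.011 for Foxo1 on scaling.

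By rank among the lower genes, a pseudocount of 1 FPKM moved Il9 from 20 to 17, Il3 from 16 to 5, Csf2 from 36 to 19 and Il4 from 60 to 33. The alternatives for the count of other cytokine genes were added after seeing the data. No paired analysis was possible because each genotype has 1 value for both of its samples, and for the same reason no replicate could be left out. Depth limits could not be computed, and an Il9 level of 1.24 FPKM rests on an unknown number of fragments.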
